A study of Mus musculus with 12 samples.

Results

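The genes described here encode enzymes that write or remove methyl and acetyl groups on histones and methyl groups on DNA. They were taken by symbol: histone lysine demethylases (Kdm), lysine methyltransferases (Kmt and Setd), histone deacetylases (Hdac), lysine acetyltransferases (Kat), the TET dioxygenases and the DNA methyltransferases (Dnmt1 and Dnmt3). Of 70 symbols that matched, 63 reached a value of 1 in 3 or more of the 12 libraries and are the members, out of 20419 genes that met the same minimum. The symbols that did not meet it were Dnmt3a-ps1, Dnmt3bos, Dnmt3l-ps1, Kat6b-ps1, Kat6b-ps2, Kdm4dl and Kdm6bos. Just inside the minimum were Kat2b-ps (4 libraries, highest value 2.8) and Kdm4d (5 libraries, highest value 2.3), and just outside it was Dnmt3bos (2 libraries, highest value 2.5). The rule also took an antisense transcript, Dnmt3aos, and a pseudogene, Kat2b-ps, which encode no enzyme.

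The cells were peritoneal macrophages, phagocytes of the belly cavity, from 10-week-old C57BL/6 mice, and their RNA was sequenced. The 12 libraries form 4 groups of 3: Lyz2Cre control, Lyz2Cre with LPS (lipopolysaccharide, a bacterial cell wall component sensed through TLR4), Lyz2Cre-BHLHE40-Fl control and Lyz2Cre-BHLHE40-Fl with LPS. All 12 carry Lyz2Cre, a Cre recombinase expressed from the lysozyme 2 locus and active in myeloid cells, and the second label adds a floxed allele of BHLHE40, a basic helix-loop-helix transcription factor. Neither the dose nor the duration of LPS is given in the sources used here. Whether replicates are separate animals is not in the labels, and p-values therefore cover only the spread among these libraries.

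Lysine acetyltransferases place acetyl groups on histone tails, which loosens the packing of DNA and recruits bromodomain proteins, and deacetylases take them off. Methylation of histone lysines can mark active or silent chromatin, depending on the residue: H3K4 methylation marks promoters and enhancers, H3K27 methylation marks genes silenced by Polycomb. DNA methyltransferases methylate cytosine, with Dnmt1 copying the pattern after replication and Dnmt3 enzymes adding it anew, and TET enzymes oxidise methylcytosine towards its removal. In macrophages, Kdm6b is a classical LPS-induced gene, Tet2 is known to restrain inflammatory cytokine genes, and Hdac3 is a corepressor enzyme needed for parts of the inflammatory programme.

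The deposited values equal reads over a factor that each library has for itself, and libraries held 20489417 to 29354869 reads. Log2 differences are on the log2(value + 1) scale with their standard error (SE), and a gene was called at a limma adjusted p below 0.05 over all 20419 genes. Bhlhe40 itself was not lower in the BHLHE40-Fl-labelled controls (8045.7, 7617 and 8015.5 against 4886.1, 4737.1 and 5306.2 in Lyz2Cre controls, log2 difference 0.67, limma adjusted p = 6.315e-06), and with LPS it differed by -0.15 (limma adjusted p = 0.2014). A value over the whole gene does not check a deletion of some exons, so each genotype direction below rests on the label alone. All 10 macrophage markers were found in every group, with summed values of 123879 to 135963 in Lyz2Cre controls and 69075.6 to 78447.4 in BHLHE40-Fl-labelled controls, and 169613 to 177114 and 97618.1 to 101884 with LPS. Cd68, the largest part of the control sums, was alike (means 45307.5 and 44203.9). Adgre1 (30456.1 and 5634.6), Itgam (9695.47 and 1179.33), Cd14 (8293.97 and 1431.07), Fcgr1 (4861.97 and 636.567) and Lyz2 (765.8 and 170.167) had lower means in BHLHE40-Fl-labelled controls. Csf1r and Mertk were also lower there, and Mrc1 (2483.1 and 4436.77) and Spi1 (3689.97 and 4208.13) were higher. The 14 markers of mesothelium and stroma summed to 1951.2 to 2121.9 and 11338.4 to 14565.5 in the respective controls, and to 3148.7 to 4622.2 and 12068.5 to 15936.2 with LPS. The defining mesothelial gene Upk3b had no reads in any Lyz2Cre library and reached 339.4 to 795.7 in BHLHE40-Fl-labelled ones. The 5 endothelial markers summed to 919.2 to 1036 and 3326.1 to 3626.2 in the controls. Vwf (means 654.3 and 2664.8) and Kdr (303.4 and 813.4) made up most of these sums. Pecam1 (11.5 and 1.5) and Cdh5 (14.9 and 11.8) were not higher in BHLHE40-Fl-labelled controls, and Tek was low in both (1.9 and 2). The neutrophil list summed to 23567.2 to 27851.6 in Lyz2Cre controls and 334.1 to 562 in BHLHE40-Fl-labelled controls, and this was mostly Mmp8: Ly6g was at 0 in all 12 libraries. The monocyte list summed to 1196 to 1523.9 and 105.7 to 110.5 in the respective controls, and this was mostly Ly6c2 (means 1217.43 and 0.5). Ccr2 (72.1 and 54.5) and Plac8 (13.3 and 12.9) were closer, and with LPS Plac8 was higher in BHLHE40-Fl-labelled libraries (39.4 and 161.3). The B cell list summed to 1400.2 to 1548 and 260.3 to 337.5. The T cell list summed to 137.8 to 159.7 and 47 to 52.3. With LPS it came to 439 to 514.7 and 1026.9 to 1322.6, mostly Lck (means 374.2 and 1133). All other genes of that list had lower means in BHLHE40-Fl-labelled LPS libraries, such as Cd3g (26.1 and 0.4) and Cd247 (35.3 and 15.2). Among 8 large peritoneal macrophage markers, Gata6 (control means 24.7 and 333.2) and Tgfb2 (47.6 and 152.2) were higher in BHLHE40-Fl-labelled controls. Icam2 (138.6 and 71.5), F5 (113.2 and 53.5), Alox15, Timd4 and Selp had lower means there. This list's sum was mostly Cd9 (9839.2 and 10431.2). It overlapped in controls (8987 to 10859.3 and 10545.2 to 11827.3) but not with LPS (8590.4 to 9740.8 and 10834.9 to 12233.6). These list sums, the last one only with LPS, differed with the genotype label beside the genotype results below. Their part in those results was not tested. Mitochondrial genes took 0.985% to 1.37% of reads in Lyz2Cre controls and 1.20% to 1.63% in BHLHE40-Fl-labelled controls. With LPS they took 0.486% to 0.600% in Lyz2Cre and 0.756%, 1.92% and 1.89% in BHLHE40-Fl-labelled replicates 1, 2 and 3, where replicate 1 stood apart from the others. That group also varied most among its replicates (chi-square per degree of freedom 33.5 to 72.2, against 7.35 to 36.4 elsewhere). Of the 41 members called between labels with LPS, 39, 35 and 38 remained called without its replicate 1, 2 and 3, and of the 19 called interactions 19, 17 and 18. The part of these differences in the genotype results was not tested. In bulk RNA, fewer cells of a type and less RNA per cell cannot be told apart.

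The members were well expressed. Their median of mean values was 865.6, against 69.99 over all tested genes, and 56 of the 63 had a mean of at least 50. Per kilobase of exon, Dnmt1 (1085) and Dnmt3a (526.3) led the Lyz2Cre controls, followed by the H4K20 monomethyltransferase gene Kmt5a (437.1). With LPS the lead passed to the acetyltransferase gene Kat2b (985.9) and the H3K9/H3K36 demethylase gene Kdm4a (917.3), while Dnmt1 stood 12th among the members at 263.9 per kilobase. In BHLHE40-Fl-labelled controls Dnmt3a was first at 1604 per kilobase and Dnmt1 second at 801.3.

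LPS changed most of the members in both genotype labels, in both directions. In Lyz2Cre 23 members rose and 22 fell. Of all tested genes 25.0% rose and 23.9% fell in that comparison. In BHLHE40-Fl-labelled libraries 18 members rose and 24 fell, where 24.9% of all genes rose and 25.6% fell. The members' levels were also higher than those of all genes, as given above, and the part of level in these shares was not tested. At a difference of at least 2-fold the members were nearer the background: 19 of 63 in Lyz2Cre against 26.2% of all genes, and 16 of 63 in BHLHE40-Fl-labelled libraries against 27.5%. Under equal totals these were 26 against 36.0% and 27 against 37.3%. The median log2 difference of the members was 0.08 in Lyz2Cre and -0.03 in BHLHE40-Fl-labelled libraries, beside 0 and -0.05 for all genes. Between both LPS comparisons, which share no libraries, 17 members rose in both, 17 fell in both and 12 were called in neither. The matching shares of all genes were not counted, so these joint counts are not a result particular to the members. Kdm2a and Kdm3a rose in Lyz2Cre and fell in BHLHE40-Fl-labelled libraries, and under equal totals both fell in Lyz2Cre too. The rise of Kdm2a in Lyz2Cre (0.17, limma adjusted p = 0.03581) was also lost without Lyz2Cre control replicate 1 (adjusted p = 0.1279) or 3 (0.06344), without Lyz2Cre LPS replicate 1 (0.07123) or 3 (0.135), and in edgeR (0.559).

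The direction of small LPS changes depended on the scale. The deposited values sum to more per library with LPS. With every library set to the same total, the median of all genes became -0.58 in Lyz2Cre, -0.56 in BHLHE40-Fl-labelled libraries, 0.17 for genotype label in controls and 0.22 for genotype label with LPS. For the 56 better-expressed members the shift was -0.73 for LPS in Lyz2Cre, -0.62 for LPS in BHLHE40-Fl-labelled libraries, 0.18 and 0.29 for genotype label in controls and with LPS, and 0.11 for the interaction. On that scale 10 members rose and 39 fell with LPS in Lyz2Cre (11.7% and 46.5% of all genes), and 8 rose and 42 fell in BHLHE40-Fl-labelled libraries (12.8% and 46.8%). LPS increases below these shifts are therefore given with their value under equal totals.

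**Figure D1:**
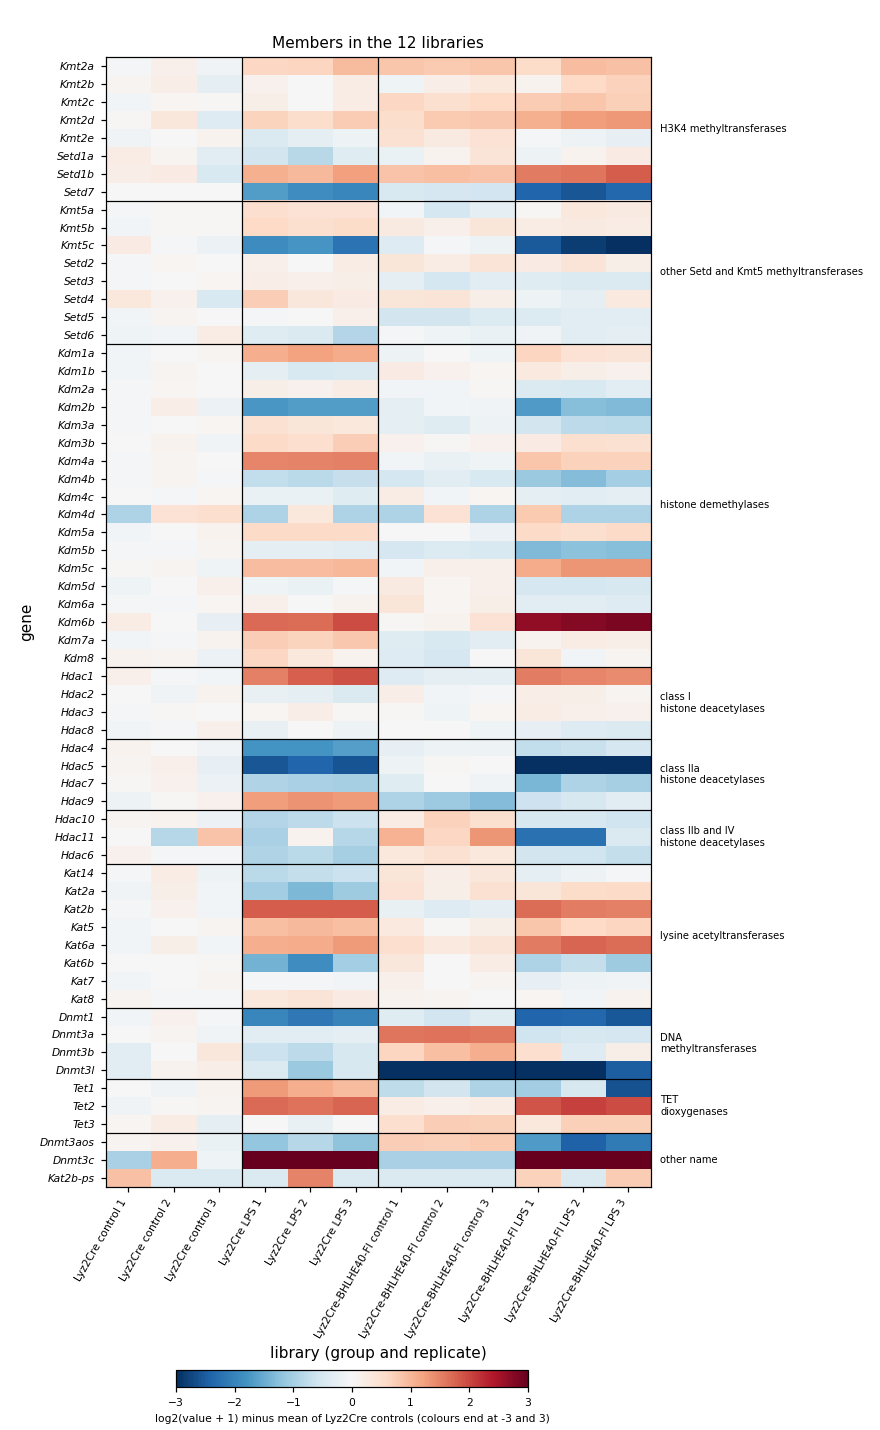
Each row is 1 of the 63 members, grouped by role, and each column 1 of the 12 libraries; colour is log2(value + 1) minus the mean of the 3 Lyz2Cre controls, with colours ending at -3 and 3. With LPS Kdm6b and Dnmt3c are red and Hdac5, Kmt5c and Dnmt1 blue in both labels, Dnmt3l is blue in all BHLHE40-Fl-labelled libraries, and Dnmt3a is red in the BHLHE40-Fl-labelled controls and pale blue with LPS in both labels.

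Between genotype labels the members also differed in both directions. In controls 17 members were higher and 12 lower in BHLHE40-Fl-labelled libraries, where 15.0% and 16.6% of all genes were, and 3 members differed at least 2-fold against 15.3% of all genes. With LPS 16 were higher and 25 lower, where 17.7% and 19.8% of all genes were, and 8 differed at least 2-fold against 15.5%. The member median was 0.06 in controls and -0.20 with LPS, beside 0.00 and -0.02 for all genes. Under equal totals the split became 25 higher and 9 lower in controls (25.0% and 12.4% of all genes), and 28 higher and 14 lower with LPS (30.4% and 11.0%). The interaction, the LPS change in BHLHE40-Fl-labelled libraries minus that in Lyz2Cre, was called positive for 5 members and negative for 14, against 9.52% and 9.31% of all genes. For 4 members it was at least 2-fold, against 7.4% of all genes. Under equal totals the interaction was positive for 6 and negative for 13, against 12.6% and 7.07%, and 18 of the 19 called members remained called, the exception being Kat5 (-0.29). Dnmt3a, Dnmt3aos, Hdac9, Kdm3a and Kdm5b were called in all 5 comparisons on the deposited scale, and of these Dnmt3aos and Kdm5b in all 5 under equal totals too. The Dnmt3a call between labels with LPS depended on the processing, as given with that gene, and Kdm3a in controls (-0.26, limma adjusted p = 0.01858) was lost without Lyz2Cre control replicate 3 (adjusted p = 0.06389) or BHLHE40-Fl-labelled control replicate 2 (0.08454). Hdac3, Hdac8, Kat2b-ps, Kdm4d, Kdm8, Kmt2b and Setd4 were called in none, where Kat2b-ps and Kdm4d had highest values of only 2.8 and 2.3. The shares of all genes called in all 5 comparisons or in none were not counted.

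**Figure D2:**
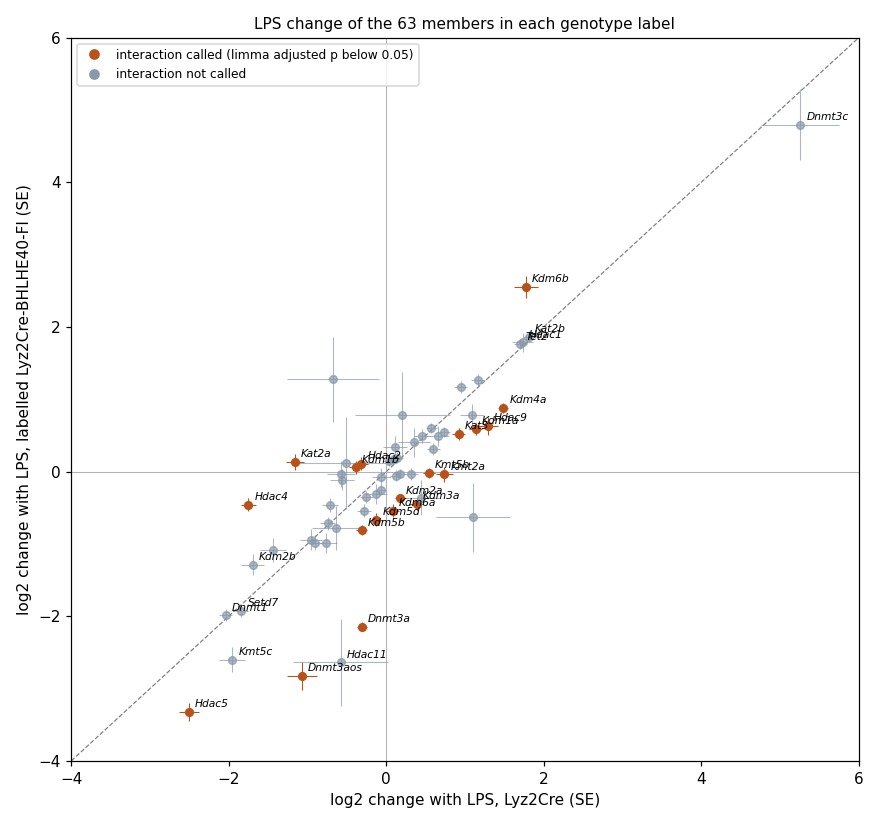
Each point is 1 of the 63 members, with its log2 change with LPS in Lyz2Cre (x axis) and in libraries labelled Lyz2Cre-BHLHE40-Fl (y axis); bars are SE, the dashed line marks equal change, and orange points are the 19 members with a called interaction. Dnmt3a lies far below the line (-0.31 and -2.14), and Hdac4 (-1.75 and -0.46) and Kat2a (-1.16 and 0.13) lie above it.

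Among the DNA methyltransferase genes, Dnmt3a stood apart by its level in BHLHE40-Fl-labelled controls. Dnmt3a (ENSMUSG00000020661, chr12:3806007-3914443, plus strand, GRCm38) encodes a de novo methyltransferase. Its values were 8792.9, 9320.2 and 8164.5 in Lyz2Cre controls and 26581.2, 27173.5 and 26338.5 in BHLHE40-Fl-labelled controls, a 3.05-fold difference. All 3 BHLHE40-Fl-labelled controls stood above every other library (log2 difference 1.61 ± 0.06 SE, limma adjusted p = 1.556e-12). With LPS the values came to 7013, 6889.7 and 7243 in Lyz2Cre and to 5760.3, 6271.2 and 6122.4 in BHLHE40-Fl-labelled libraries. With LPS Dnmt3a fell by less than 2-fold in Lyz2Cre (1.24-fold, log2 difference -0.31 ± 0.06, limma adjusted p = 0.0005577) and 4.41-fold in BHLHE40-Fl-labelled libraries (-2.14 ± 0.06, limma adjusted p = 6.629e-15), and the interaction was -1.83 ± 0.09 (limma adjusted p = 3.239e-10). The fall in Lyz2Cre was larger under equal totals (-1.04). The difference between labels with LPS, -0.22 (limma adjusted p = 0.01181), rested on the processing: its sign turned under equal totals (0.07) and under quantile normalization (0.06), and it was not called without Lyz2Cre LPS replicate 3 (adjusted p = 0.05344) or in edgeR (-0.18, adjusted p = 0.06808).

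Dnmt3aos (ENSMUSG00000073242, chr12:3859293-3862244, minus strand), a transcript annotated antisense within Dnmt3a, had a like pattern at a much lower value: 172.4, 175.9 and 139.9 in Lyz2Cre controls, 72.3, 88.3 and 70 with LPS, 269.7, 265.3 and 277.5 in BHLHE40-Fl-labelled controls and 49.2, 29.1 and 36.3 with LPS. No 2 groups overlapped, and the interaction was -1.75 ± 0.26 (limma adjusted p = 0.0001048). Of its exon length 9.60% is shared with Dnmt3a, and the strand setting of the counting is not given in the sources used here, so reads of the 2 genes cannot be told apart there.

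Because BHLHE40 belongs to a family of factors that bind the E-box CACGTG, promoter windows were searched for that motif, and, because LPS acts through NF-kB, for the NF-kB-type motif GGGNNTTCC, each on both strands. RefSeq windows of 300 bases (250 before and 50 after an annotated start, GRCm38.p6) matched 49 of the 63 members, with 73 windows. CACGTG was in 6 of these 73 windows and in 7.15% of 32851 windows of all genes; the 6 belong to Dnmt3a, Dnmt3l, Hdac5, Kat5, Kdm4c and Kdm6a. GGGNNTTCC was in 3 of the 73 (Hdac7, Kat5 and Kdm5b) and in 5.82% of all. The windows below were chosen after the matches were seen: they show CACGTG in 4 of those 6 genes, with the first Dnmt3a start for contrast. Those of Kdm4c and Kdm6a are not shown. Matches are in capitals and do not overlap. Dnmt3a has starts near the beginning of the gene, without a match, of which the first is shown, and an internal start 85737 bases from the gene's annotated start, whose window holds CACGTG 80 bases before the start. The Dnmt3l match lies 44 bases before an internal start, and the Hdac5 match 3 bases after its start. The Kat5 matches (CACGTG and the NF-kB-type motif) lie 186 and 143 bases before an annotated start. The other Dnmt3l and Kat5 windows hold neither motif and are not shown. The deposited values sum all starts of a gene, so the Dnmt3a starts cannot be told apart in them, and a match describes the letters and not binding.
Dnmt3a, first start (chr12:3806730-3807029, plus strand): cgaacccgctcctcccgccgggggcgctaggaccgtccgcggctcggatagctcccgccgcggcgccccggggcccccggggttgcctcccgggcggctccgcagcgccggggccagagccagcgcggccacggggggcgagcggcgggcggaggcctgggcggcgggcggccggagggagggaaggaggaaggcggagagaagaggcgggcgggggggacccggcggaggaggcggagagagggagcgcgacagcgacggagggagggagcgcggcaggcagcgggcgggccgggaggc
Dnmt3a, internal start (chr12:3891494-3891793, plus strand): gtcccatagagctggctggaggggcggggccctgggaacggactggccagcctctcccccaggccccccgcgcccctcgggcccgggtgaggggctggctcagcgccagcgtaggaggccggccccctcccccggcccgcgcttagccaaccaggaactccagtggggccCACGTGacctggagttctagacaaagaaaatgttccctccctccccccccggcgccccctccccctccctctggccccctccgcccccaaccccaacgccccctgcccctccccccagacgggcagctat
Dnmt3l, internal start (chr10:78049592-78049891, plus strand): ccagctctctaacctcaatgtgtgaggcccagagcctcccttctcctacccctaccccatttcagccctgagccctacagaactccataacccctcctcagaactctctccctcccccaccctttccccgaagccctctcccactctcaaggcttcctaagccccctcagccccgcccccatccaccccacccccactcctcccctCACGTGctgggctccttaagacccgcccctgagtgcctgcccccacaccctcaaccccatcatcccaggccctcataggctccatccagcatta
Hdac5 (chr11:102230123-102230422, minus strand): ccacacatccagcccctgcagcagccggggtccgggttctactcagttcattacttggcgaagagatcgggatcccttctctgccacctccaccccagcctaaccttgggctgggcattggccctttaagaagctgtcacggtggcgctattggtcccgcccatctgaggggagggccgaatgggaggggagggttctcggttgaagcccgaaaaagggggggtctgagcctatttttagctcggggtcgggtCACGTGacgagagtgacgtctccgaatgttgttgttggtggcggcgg
Kat5 (chr19:5610045-5610344, minus strand): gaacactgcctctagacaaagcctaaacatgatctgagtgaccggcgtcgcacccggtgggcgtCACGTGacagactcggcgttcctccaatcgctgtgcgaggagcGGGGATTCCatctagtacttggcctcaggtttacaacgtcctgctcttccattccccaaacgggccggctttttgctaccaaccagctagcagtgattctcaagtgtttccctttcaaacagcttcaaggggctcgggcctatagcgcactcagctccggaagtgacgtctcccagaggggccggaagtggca

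The other DNA methyltransferase genes had lower values or changed alike in both labels. Dnmt1 (ENSMUSG00000004099, chr9:20907209-20959888, minus strand), the maintenance methyltransferase, stood at 7545.8, 8740.6 and 7730.7 in Lyz2Cre controls and 2041.2, 1815.2 and 1983 with LPS. In BHLHE40-Fl-labelled libraries it stood at 6171.5, 5367 and 6195.1 and, with LPS, at 1540.2, 1556.3 and 1373.8. Every LPS library was below every control library. The log2 differences were -2.04 ± 0.08 (limma adjusted p = 4.025e-13) and -1.99 ± 0.08 (limma adjusted p = 3.94e-13), and the interaction was not called (0.05 ± 0.11, limma adjusted p = 0.8207). Dnmt1 was lower in BHLHE40-Fl-labelled controls (-0.44, limma adjusted p = 0.0003351) and with LPS (-0.39, limma adjusted p = 0.0009509), the latter not called under equal totals (-0.10). Dnmt1 is known to follow cell division, and the 8 cycling genes summed to 4903.3 to 6188.2 in Lyz2Cre controls, 5701.2 to 6186.4 with LPS, 4802.4 to 4997.3 in BHLHE40-Fl-labelled controls and 7148.2 to 7673.8 with LPS. With LPS 5 of those 8 genes fell and 1 rose in Lyz2Cre, and 3 fell and 2 rose in BHLHE40-Fl-labelled libraries. Mcm2, a replication helicase gene, fell in both (-1.93 and -1.42, limma adjusted p = 8.915e-11 and 5.839e-09), and Pcna, the replication clamp gene that makes up much of the sums, rose in both (0.76 and 0.70, limma adjusted p = 3.097e-06 and 8.258e-06; 0.03 and 0.08 under equal totals, not called). Their part in the Dnmt1 result was not tested.

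Dnmt3c (chr2:153696652-153729907, plus strand), a rodent methyltransferase gene known from the male germ line, was nearly absent without LPS. It stood at 0, 3.2 and 0.8 in Lyz2Cre controls and 66.7, 97.9 and 62.2 with LPS. In BHLHE40-Fl-labelled libraries it was at 0 in all 3 controls and at 29.3, 27.6 and 23.8 with LPS. All 6 LPS libraries were above all 6 controls (log2 differences 5.26 ± 0.49 and 4.80 ± 0.49, limma adjusted p = 5.756e-08 and 1.864e-07), which is 56.7-fold in Lyz2Cre, from 5 reads in the controls with a counting interval (95%, exact Poisson) of 23.8 to 177, and at least 36.1-fold in BHLHE40-Fl-labelled libraries against a floor of 3 reads over the group. The fold in Lyz2Cre was 37.8 without control replicate 1 and 189 without control replicate 2. The lower level in BHLHE40-Fl-labelled LPS libraries (-1.43, limma adjusted p = 0.02932) was not called with a pseudocount of 0.1, without the filter or under equal totals. Leaving out Lyz2Cre LPS replicate 1 (adjusted p = 0.05299) or 2 (0.1108) also ended the call, as did leaving out any BHLHE40-Fl-labelled LPS replicate (0.05166, 0.06253 and 0.08309 without replicates 1, 2 and 3). Dnmt3c lies beside its close relative Dnmt3b on chromosome 2, and how the counting treated reads that fit both is not given in the sources used here.

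Dnmt3b (chr2:153649450-153687730) held 13.8 to 52.9 over the 12 libraries. It was higher in BHLHE40-Fl-labelled controls (38.5, 46.6 and 52.9 against 19.2, 24.3 and 31, log2 difference 0.88 ± 0.31, limma adjusted p = 0.03942) with no overlap, a call lost without Lyz2Cre control replicate 1 (adjusted p = 0.1468) or 2 (0.08125) or BHLHE40-Fl-labelled control replicate 2 (0.09222) or 3 (0.1334). Dnmt3l (chr10:78041947-78063622), a cofactor of the Dnmt3 enzymes without catalytic activity, was the reverse: 31.6, 43 and 46.1 in Lyz2Cre controls and 0, 0 and 0.7 in BHLHE40-Fl-labelled controls. That is 172-fold lower, with a counting interval (95%, exact Poisson) of 28.4 to 6394, since the latter group held 1 read (log2 difference -5.09 ± 0.59, limma adjusted p = 1.991e-06). LPS libraries held 29.2, 17.9 and 28 against 2.3, 0 and 6.3, again without overlap (-3.14 ± 0.59, limma adjusted p = 0.000365).

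**Figure D3:**
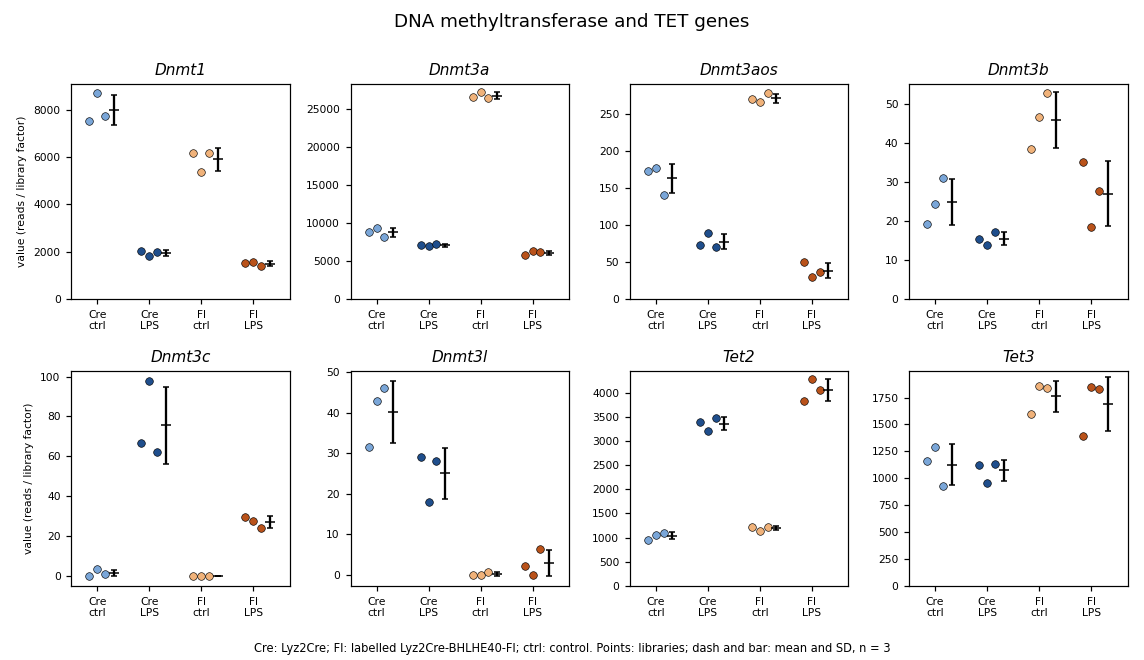
Values per library (reads divided by the library's factor, linear axes) of 8 DNA methyltransferase and TET genes in the 4 groups, with mean and SD (n = 3) beside the points. Dnmt3a is highest in the BHLHE40-Fl-labelled controls (26338.5 to 27173.5), Dnmt1 is low in both LPS groups, and Tet2 is high in both.

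Of the TET genes, Tet2 rose with LPS in both labels and Tet3 differed between labels. Tet2 (ENSMUSG00000040943, chr3:133463679-133545139, minus strand) stood at 957.7, 1058.6 and 1101.3 in Lyz2Cre controls and 3390.5, 3215.2 and 3483.9 with LPS. In BHLHE40-Fl-labelled libraries it stood at 1214.1, 1146.3 and 1218.9 and, with LPS, at 3821.1, 4277.9 and 4063.6. The LPS groups lay above both control groups, and the rises were 3.24-fold (log2 difference 1.70 ± 0.07, limma adjusted p = 8.929e-13; 0.97 under equal totals) and 3.40-fold (1.76 ± 0.07, limma adjusted p = 3.532e-13; 1.14 under equal totals). The interaction was 0.07 ± 0.10 (limma adjusted p = 0.7221). The slightly higher Tet2 in BHLHE40-Fl-labelled controls (0.20, limma adjusted p = 0.03921) was lost without Lyz2Cre control replicate 1 (adjusted p = 0.1808) or 2 (0.05556), Lyz2Cre LPS replicate 1 (0.05161), BHLHE40-Fl-labelled control replicate 1 (0.09301) or 3 (0.1174) or BHLHE40-Fl-labelled LPS replicate 3 (0.0506), and in edgeR (adjusted p = 0.07138). With LPS the difference between labels was 0.27 (limma adjusted p = 0.005928) and larger under equal totals (0.56).

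Tet3 stood at 1163.2, 1294.5 and 924.6 in Lyz2Cre controls and 1596.5, 1854.5 and 1838.5 in BHLHE40-Fl-labelled controls, with no overlap (0.66 ± 0.12, limma adjusted p = 0.0004237). In LPS libraries Tet3 was at 1126.9, 957.3 and 1133.8 against 1396.2, 1844.6 and 1829.6 (0.65 ± 0.12, limma adjusted p = 0.0004285). Tet3 was not called for LPS in either label on the deposited scale, and was called lower in both under equal totals (-0.79 and -0.69). Tet1 was low throughout, at 12.2 to 14.2 in Lyz2Cre controls and 26.4 to 33.3 with LPS (limma adjusted p = 0.06331). In BHLHE40-Fl-labelled LPS libraries it stood at 5.9, 9.2 and 1.3, below all 3 Lyz2Cre LPS libraries (-2.48 ± 0.47, limma adjusted p = 0.0004193).

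Histone demethylase genes moved both ways with LPS. Of 18 tested, 9 rose and 5 fell in Lyz2Cre, and 7 rose and 8 fell in BHLHE40-Fl-labelled libraries (4 and 9, and 3 and 10, under equal totals). Of all genes 25.0% rose and 23.9% fell in Lyz2Cre, and 24.9% and 25.6% in BHLHE40-Fl-labelled libraries (11.7% and 46.5%, and 12.8% and 46.8%, under equal totals). Kdm6b (ENSMUSG00000018476, chr11:69398508-69413675, minus strand), which removes H3K27 methylation, had the largest rise. It stood at 76.2, 66.5 and 55.3 in Lyz2Cre controls and 214, 211 and 256.6 with LPS (3.44-fold). BHLHE40-Fl-labelled libraries had Kdm6b at 67.6, 70.3 and 88.4 and, with LPS, at 421.3, 444.7 and 469.6 (5.90-fold). The control groups overlapped and the BHLHE40-Fl-labelled LPS libraries were above all others. The log2 rises were 1.77 ± 0.15 (limma adjusted p = 2.053e-08; 1.05 under equal totals) and 2.55 ± 0.15 (limma adjusted p = 1.159e-10), and the interaction was 0.78 ± 0.22 (limma adjusted p = 0.0172). Its relative Kdm6a, on chromosome X, did not rise: it was not called in Lyz2Cre (0.08, limma adjusted p = 0.46) and fell in BHLHE40-Fl-labelled libraries, from 1113, 895.3 and 982.6 to 697.5, 690 and 663.7 (-0.54, limma adjusted p = 3.286e-05).

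Among H3K9 demethylases, Kdm4a rose from 1814.5, 1990 and 1875.1 to 5234.4, 5275.9 and 5401.5 in Lyz2Cre. In BHLHE40-Fl-labelled libraries it went from 1775.3, 1649.2 and 1737 to 3378.7, 3059 and 3066.8. The LPS groups did not overlap, with the BHLHE40-Fl-labelled one lower. The rises were 1.49 ± 0.06 (limma adjusted p = 1.514e-12; 0.76 under equal totals) and 0.88 ± 0.06 (limma adjusted p = 1.993e-09), and the interaction was -0.61 ± 0.09 (limma adjusted p = 0.000105). Kdm3a, an H3K9 demethylase known to be induced by hypoxia, stood at 1575.1, 1643.1 and 1722.7 in Lyz2Cre controls and 2269.1, 2120 and 2065.4 with LPS, and at 1366, 1279.8 and 1472.5 and then 1125.9, 955.3 and 941.7 in BHLHE40-Fl-labelled libraries. All 4 groups were separate, with the BHLHE40-Fl-labelled LPS libraries lowest. The interaction was -0.83 ± 0.12 (limma adjusted p = 4.092e-05) and the difference between labels with LPS -1.10 ± 0.08 (limma adjusted p = 7.761e-09), while the rise in Lyz2Cre (0.39, limma adjusted p = 0.0006454) was a called fall under equal totals (-0.34). Kdm4b fell in both labels (-0.74 and -0.71).

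The flavin-dependent H3K4 demethylases, which work without iron, moved apart. Kdm1a (LSD1) went from 1239.4, 1308.3 and 1402.8 to 2794.3, 3034.5 and 2844.6 in Lyz2Cre, and from 1179.2, 1301.9 and 1200.8 to 2042.2, 1787.8 and 1720.6 in BHLHE40-Fl-labelled libraries. It rose by 1.14 ± 0.08 in Lyz2Cre (limma adjusted p = 8.111e-10) and by 0.59 ± 0.08 in BHLHE40-Fl-labelled libraries (limma adjusted p = 4.386e-06, not called under equal totals at -0.03), with an interaction of -0.55 ± 0.11 (limma adjusted p = 0.001613). Kdm1b fell in Lyz2Cre (-0.39, limma adjusted p = 0.0009122) and was not called in BHLHE40-Fl-labelled libraries (0.06), an interaction of 0.44 ± 0.12 (limma adjusted p = 0.01362). Kdm2b, an H3K36 demethylase that recruits Polycomb to CpG islands, fell in both labels, from 253.3, 299.9 and 232 to 76.4, 81.4 and 80.9 in Lyz2Cre (-1.70 ± 0.15, limma adjusted p = 2.199e-08) and from 216.6, 246.3 and 242.8 to 79.6, 107.3 and 102.7 in BHLHE40-Fl-labelled libraries (-1.29 ± 0.15, limma adjusted p = 8.152e-07).

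The Kdm5 family, which removes H3K4 trimethylation, split by gene. Kdm5c, on chromosome X, rose in both labels, from 2223.2, 2313.4 and 1994.8 to 4147.7, 4100.7 and 4300.4 (0.94, limma adjusted p = 1.762e-08) and from 2055.2, 2407.9 and 2429.1 to 4716.4, 5423.3 and 5418.6 (1.18, limma adjusted p = 7.893e-10). Its Y-linked counterpart Kdm5d did not follow it: it stood at 872.2, 958.9 and 1060.2 and then 878.2, 834.5 and 930.1 in Lyz2Cre, and at 1162.5, 999.5 and 1071 and then 682.3, 668.5 and 686.2 in BHLHE40-Fl-labelled libraries. Kdm5d fell in the latter (-0.66, limma adjusted p = 2.934e-06), where its 3 LPS libraries were the lowest of all 12, with an interaction of -0.54 ± 0.12 (limma adjusted p = 0.003692). Its lower level between labels with LPS (-0.37) was not called under equal totals (-0.09). Kdm5d and the Y-linked genes Ddx3y and Uty were present in all 12 libraries, and Xist stood between 0 and 2.3. Kdm5b fell in both labels (-0.31, limma adjusted p = 0.001004, and -0.81, limma adjusted p = 1.606e-08). It was lower in BHLHE40-Fl-labelled libraries without LPS (-0.46) and with it (539.5, 571.9 and 554.8 against 1101.9, 1091 and 1057.6, -0.96, limma adjusted p = 5.582e-09).

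**Figure D4:**
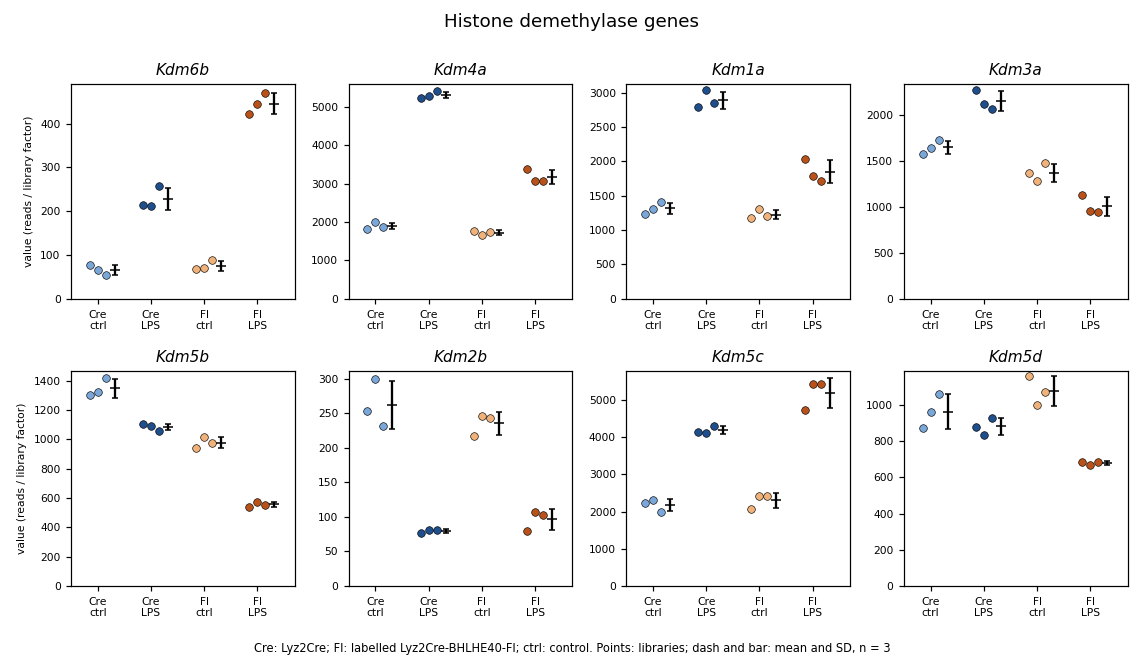
Values per library (reads divided by the library's factor, linear axes) of 8 histone demethylase genes in the 4 groups, with mean and SD (n = 3) beside the points. Kdm6b is highest in BHLHE40-Fl-labelled libraries with LPS (421.3 to 469.6), whereas Kdm4a, Kdm1a and Kdm3a are highest in Lyz2Cre libraries with LPS.

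Of the 8 genes listed as H3K4 methyltransferases, 5 were higher and 1 lower in BHLHE40-Fl-labelled controls, with a median of 0.48. Of all genes 15.0% were higher and 16.6% lower, with a median of 0.00. Under equal totals the counts were also 5 and 1, beside 25.0% and 12.4% of all genes. Kmt2a (MLL1) stood at 1224.8, 1391 and 1164.1 in Lyz2Cre controls and 2247.9, 2168.7 and 2251.5 in BHLHE40-Fl-labelled controls, with no overlap (0.82 ± 0.10, limma adjusted p = 5.952e-06). With LPS the groups overlapped, at 1924.5, 1958.6 and 2446.5 against 1852.6, 2399.6 and 2296.7, and the interaction was -0.77 ± 0.15 (limma adjusted p = 0.0009865). Kmt2c, Kmt2d and Setd1b were higher in BHLHE40-Fl-labelled libraries in controls (0.57, 0.71 and 0.87) and with LPS (0.63, 0.55 and 0.57). Kmt2e, which is in the list by its name, was also higher in BHLHE40-Fl-labelled controls (1735.3, 1500 and 1695.7 against 1168.6, 1251.6 and 1347.5). Activity of the listed proteins was not measured. Setd1b also rose with LPS in both labels (1.09 and 0.78), calls that were lost under equal totals (0.36 and 0.17). Setd1a, of whose exon length 52.27% is shared with other genes, was higher in BHLHE40-Fl-labelled LPS libraries (0.64, limma adjusted p = 0.0092), which was not called once Lyz2Cre LPS replicate 2 was left out (adjusted p = 0.05317).

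Setd7, which monomethylates H3K4 and several other proteins, was the member of that list called lower in BHLHE40-Fl-labelled controls. With LPS 3 of the 8 rose and 3 fell in Lyz2Cre, and 3 rose and 2 fell in BHLHE40-Fl-labelled libraries (0 and 5 in each under equal totals). Of all genes 25.0% rose and 23.9% fell in Lyz2Cre, and 24.9% and 25.6% in BHLHE40-Fl-labelled libraries. Under equal totals these shares were 11.7% and 46.5%, and 12.8% and 46.8%. Setd7 fell from 2085.4, 2106.7 and 2100.4 to 651.7, 572.4 and 538.1 in Lyz2Cre and from 1528.9, 1481.1 and 1415.3 to 403.8, 355.7 and 408.2 in BHLHE40-Fl-labelled libraries. All 4 groups were separate, and BHLHE40-Fl-labelled libraries were lower in each treatment (-0.51 and -0.59). The falls were -1.84 ± 0.08 (limma adjusted p = 2.455e-12) and -1.92 ± 0.08 (limma adjusted p = 9.636e-13), with an interaction of -0.08 (limma adjusted p = 0.7099). Of the H4K20 enzymes, Kmt5c, which forms the trimethyl mark, fell from 465.7, 379.4 and 348.4 to 105.6, 115.9 and 84 in Lyz2Cre (-1.96 ± 0.17, limma adjusted p = 1.606e-08) and from 301.7, 386.9 and 353.6 to 67.9, 53.7 and 48.8 in BHLHE40-Fl-labelled libraries (-2.60 ± 0.17, limma adjusted p = 2.841e-10). Its relative Kmt5b rose in Lyz2Cre (0.54, but -0.18 and called lower under equal totals) and was not called in BHLHE40-Fl-labelled libraries (-0.01), an interaction of -0.56 ± 0.10 (limma adjusted p = 0.0005804). Setd5 and Setd3 were lower in BHLHE40-Fl-labelled controls (-0.51 and -0.38), and Setd2, which trimethylates H3K36, was higher (0.33).

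Among the 4 class I deacetylase genes, Hdac1 rose with LPS in both labels. It stood at 110.9, 95.6 and 94.6 in Lyz2Cre controls and 289, 347.6 and 376.4 with LPS (1.74 ± 0.13, limma adjusted p = 3.407e-09; 1.01 under equal totals). With the other label it went from 76.3, 82.9 and 81.2 to 291.4, 277.5 and 268 (1.79 ± 0.13, limma adjusted p = 2.125e-09; 1.17 under equal totals). Every LPS library was above every control. Hdac2 fell slightly in Lyz2Cre (-0.32, limma adjusted p = 0.007117) and was not called in BHLHE40-Fl-labelled libraries (0.11). Its interaction of 0.43 (limma adjusted p = 0.0253) was lost without Lyz2Cre control replicate 1 (adjusted p = 0.05199) or 3 (0.05605), Lyz2Cre LPS replicate 3 (0.07317), BHLHE40-Fl-labelled control replicate 2 (0.06584) or 3 (0.0672) or BHLHE40-Fl-labelled LPS replicate 2 (0.05421). Hdac3 lay between 896.1 and 1156.3 in all 12 libraries and was called in no comparison. Under equal totals it was called lower with LPS in both labels (-0.63 and -0.44).

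The class IIa deacetylases, which shuttle between nucleus and cytoplasm and have little catalytic activity of their own, had the largest differences among the deacetylases. Hdac5 (ENSMUSG00000008855, chr11:102194432-102230166, minus strand) fell from 1635.9, 1700.6 and 1303.1 to 257.1, 296.6 and 255.1 in Lyz2Cre, 5.74-fold. The BHLHE40-Fl-labelled values fell from 1376.2, 1567.9 and 1545 to 120.5, 161 and 167.8, 9.99-fold. The controls overlapped and the BHLHE40-Fl-labelled LPS libraries were the lowest. The falls were -2.51 ± 0.13 (limma adjusted p = 1.107e-11) and -3.33 ± 0.13 (limma adjusted p = 1.602e-13), with an interaction of -0.81 ± 0.18 (limma adjusted p = 0.003249).

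Hdac4 (chr1:91928779-92195699) did the opposite between labels. It fell from 739.8, 684.9 and 642.3 to 197.3, 197.2 and 217.7 in Lyz2Cre (-1.75 ± 0.09, limma adjusted p = 2.467e-11). The BHLHE40-Fl-labelled values fell from 581.6, 619 and 618.9 to 413.1, 429.3 and 485.9 (-0.46 ± 0.09, limma adjusted p = 0.0004869). The LPS groups were far apart (1.11 ± 0.09, limma adjusted p = 4.057e-08) and the interaction was 1.29 ± 0.13 (limma adjusted p = 1.378e-06). Of the exon length of Hdac4 22.36% is shared with other genes. Hdac9 (chr12:34047580-34917095) rose in Lyz2Cre, where the other 3 class IIa genes fell, from 227.9, 257.8 and 274.7 to 607.2, 640 and 615.9 (1.29 ± 0.12, limma adjusted p = 7.936e-08; 0.57 under equal totals). In BHLHE40-Fl-labelled libraries it stood at 131.6, 117.6 and 102.2 and, with LPS, at 162.7, 179.4 and 202.9 (0.63 ± 0.12, limma adjusted p = 0.0003366), a rise lost under equal totals (0.02). BHLHE40-Fl-labelled libraries were below Lyz2Cre libraries in each treatment, without overlap (-1.11 and -1.77, limma adjusted p = 1.337e-06 and 3.732e-09), and the interaction was -0.66 ± 0.18 (limma adjusted p = 0.01229). Hdac7, another class IIa gene, fell in both labels alike (-0.96 and -0.94).

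Class IIb genes fell with LPS. Hdac6, a tubulin deacetylase gene, fell by 0.91 and 0.98 on the log2 scale, and Hdac10 by 0.77 and 0.98. Hdac11, the class IV gene, stood at 8.7, 6.3 and 10.9 in BHLHE40-Fl-labelled controls and 0, 0 and 2.5 with LPS (-2.64 ± 0.60, limma adjusted p = 0.001268), from 35 and 2 reads, a fold of 10.4 with a counting interval of 2.58 to 86.1.

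**Figure D5:**
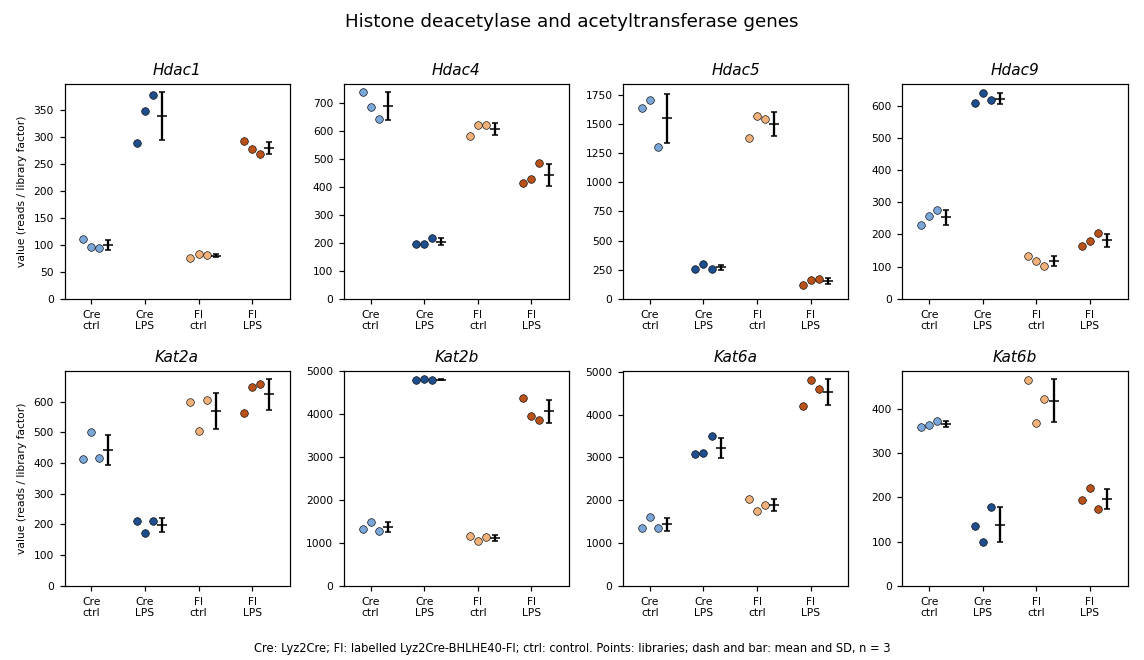
Values per library (reads divided by the library's factor, linear axes) of 8 deacetylase and acetyltransferase genes in the 4 groups, with mean and SD (n = 3) beside the points. Hdac4 and Kat2a are low in Lyz2Cre libraries with LPS (197.2 to 217.7 and 172.4 to 212.6) and not in BHLHE40-Fl-labelled libraries with LPS, and Hdac9 is high in Lyz2Cre libraries with LPS (607.2 to 640).

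Of 8 acetyltransferase genes, 4 rose and 3 fell with LPS in Lyz2Cre, and 3 rose and 3 fell in BHLHE40-Fl-labelled libraries (2 and 5 in each under equal totals). The shares of all genes were those given for the demethylases, 25.0% and 23.9% in Lyz2Cre and 24.9% and 25.6% in BHLHE40-Fl-labelled libraries (11.7% and 46.5%, and 12.8% and 46.8%, under equal totals). The paralogs Kat2a (GCN5) and Kat2b (PCAF), which acetylate H3K9, moved oppositely in Lyz2Cre. Kat2b (chr17:53566861-53672720) rose from 1334.1, 1490.7 and 1284.7 to 4793.9, 4812.5 and 4788.8 in Lyz2Cre (1.81 ± 0.07, limma adjusted p = 5.976e-13; 1.08 under equal totals). With the other label Kat2b rose from 1168.3, 1037.4 and 1138.4 to 4370, 3952.9 and 3873.3 (1.87 ± 0.07, limma adjusted p = 2.659e-13). Every LPS library was above every control, and the interaction was 0.05 ± 0.10 (limma adjusted p = 0.7904).

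Kat2a (chr11:100704746-100712465) fell from 413.4, 500.1 and 417.1 to 212.6, 172.4 and 210 in Lyz2Cre (-1.16 ± 0.12, limma adjusted p = 1.28e-07). BHLHE40-Fl-labelled libraries had Kat2a at 597.6, 502.9 and 606.5 and, with LPS, at 564.1, 648.6 and 656.2 (0.13 ± 0.12, limma adjusted p = 0.3729; called lower under equal totals, -0.49). In controls Kat2a was also called higher in BHLHE40-Fl-labelled libraries. That call was lost without Lyz2Cre control replicate 1 (limma adjusted p = 0.09434) or 3 (0.07617) or BHLHE40-Fl-labelled control replicate 1 (0.07874) or 3 (0.1). The LPS groups were separate by 1.65 ± 0.12 (limma adjusted p = 3.635e-09), the largest positive difference between labels among the members with LPS, and the interaction was 1.29 ± 0.16 (limma adjusted p = 1.538e-05). The MYST family genes Kat6a and Kat6b, which are close paralogs, moved oppositely in both labels: Kat6a rose by 1.17 and 1.26, and Kat6b fell by 1.44 and 1.09 on the log2 scale. Kat5 (TIP60) rose in both labels (0.92 and 0.52), calls that were lost under equal totals (0.19 and -0.10), and its interaction was -0.40 (limma adjusted p = 0.02398). For Kat7 and Kat8, which acetylate H3K14 and H4K16, all 5 log2 differences lay between -0.34 and 0.31. The interaction of Kat5 was lost without Lyz2Cre control replicate 1 (adjusted p = 0.06559), Lyz2Cre LPS replicate 2 (0.06126), BHLHE40-Fl-labelled control replicate 1 (0.06134) or 3 (0.05223) or BHLHE40-Fl-labelled LPS replicate 2 (0.06997) or 3 (0.05943).

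Other genes of these pathways, 99 tested in 9 lists (further methyltransferases, arginine methyltransferases, demethylases, sirtuins, acetyltransferases, Polycomb and COMPASS partners, corepressor partners, DNA methylation partners and acetyl-lysine readers), are given for comparison. With LPS 36 rose and 35 fell in Lyz2Cre, and 36 rose and 29 fell in BHLHE40-Fl-labelled libraries (14 and 73, and 17 and 64, under equal totals). Between labels 30 were higher and 7 lower in controls, and 37 higher and 16 lower with LPS (45 and 2, and 63 and 5, under equal totals), and the interaction was positive for 14 and negative for 18 (22 and 13). Of all genes 25.0% rose and 23.9% fell with LPS in Lyz2Cre, and 24.9% and 25.6% in BHLHE40-Fl-labelled libraries (11.7% and 46.5%, and 12.8% and 46.8%, under equal totals). Between labels 15.0% were higher and 16.6% lower in controls, and 17.7% and 19.8% with LPS (25.0% and 12.4%, and 30.4% and 11.0%, under equal totals), and 9.52% and 9.31% had a positive or negative interaction (12.6% and 7.07%). Setdb2, an H3K9 methyltransferase gene known as interferon-induced, rose from 404.2, 543.1 and 486.6 to 6397.4, 6518.7 and 6311.4 in Lyz2Cre (3.75 ± 0.10, limma adjusted p = 1.835e-15) and from 418.8, 332.4 and 344.9 to 5465.4, 5130.5 and 5322.2 in BHLHE40-Fl-labelled libraries (3.86 ± 0.10, limma adjusted p = 7.496e-16). Hat1, which acetylates new histone H4, rose by 2.5 and 2.03, and Brd2, a reader of acetylated histones, by 2.22 and 2.13.

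Of the DNA methylation partners, Gadd45a and Gadd45b, both linked to DNA demethylation, moved oppositely with LPS. Gadd45a fell in both labels (-2.83 and -3.57), and Gadd45b rose (3.61 and 1.87) from controls that already differed between labels, 649, 633.1 and 678.3 against 2908, 3212.4 and 2971.8. Uhrf1, which brings Dnmt1 to replicated DNA, fell in Lyz2Cre from 280.2, 242.4 and 168.3 to 62.5, 100.7 and 60.7 (-1.62, limma adjusted p = 2.825e-06) and was not called in BHLHE40-Fl-labelled libraries, where it stood at 146.9, 150 and 170.3 and then 132.2, 168.7 and 155.3 (interaction 1.58, limma adjusted p = 0.0007273). Dnmt1 had no such called interaction. Ezh2, the H3K27 methyltransferase gene opposite to Kdm6a and Kdm6b, lay between 165.5 and 253 in all 12 libraries. It was called higher with LPS in BHLHE40-Fl-labelled libraries (0.36, limma adjusted p = 0.04415; -0.26 under equal totals) and between labels with LPS (0.37, limma adjusted p = 0.04833), and each call was lost without any 1 of the 3 BHLHE40-Fl-labelled LPS libraries (adjusted p = 0.06072 to 0.1186 and 0.07072 to 0.1317). The coactivator acetyltransferase genes Ep300 and Crebbp rose with LPS in Lyz2Cre (0.36 and 0.40) and were called lower there under equal totals (-0.37 and -0.33). In BHLHE40-Fl-labelled libraries Crebbp also rose (0.34, limma adjusted p = 0.01933), with its sign turned under equal totals, and Ep300 was not called (0.14, limma adjusted p = 0.1534). Neither interaction was called (-0.22 and -0.06, limma adjusted p = 0.1805 and 0.8488).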

How the data were processed

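RNA was sequenced from 12 libraries of mouse peritoneal macrophages in 4 groups of 3, taken from the genotype and treatment labels. The deposited table is a signal, judged from its values: each entry is a whole number of reads over a library's own factor, kept to 1 decimal, and at a tolerance of 0.06 for rounding 100% of entries were whole. Per the submitters' processing notes, mm10, STAR, Cufflinks and Cuffdiff were used, without roles or versions, and neither the read counter nor its strand setting is given in the sources used here. A read was worth 0.725 to 1.56, and totals were 20489417 to 29354869 reads.

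The members and all lists were chosen with earlier results of these data known, and no list is independent support. A limma 3.58.1 trend model (R 4.3.3) with a mean for each group was run on log2(value + 1) with all 12 libraries, for the 20419 genes that reached 1 in 3 or more libraries, with Benjamini-Hochberg adjustment over all of them for each of 5 contrasts. The plan had assumed FPKM, and the test was kept. Genes were named by a rule (up to 6 called members per direction and contrast with the largest differences, a mean of at least 10 in 1 group and no overlap, up to 3 per direction of the other lists, and genes named for their function), and further members were described by role after their values were seen. Folds are ratios of group means, and against 0 reads a floor of 3 reads over the group was used. Intervals cover counting error only. Coordinates are from GENCODE M21 (GRCm38), promoter sequences from RefSeq (GRCm38.p6). The model was tested on simulated data.

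The analysis was repeated with a pseudocount of 0.1 or 5, with the filter dropped or raised to 5, with equal library totals, median-of-ratios scaling or quantile normalization, on the compared groups alone, with replicate numbers as a block, with each library left out, and edgeR 4.0.16 (quasi-likelihood) on the recovered reads. Replicates differed by more than sampling noise of reads (chi-square per degree of freedom 7.35 to 72.2 over 12 pairs), so none was merged.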

Additional observations from a re-analysis of the deposited data

Results flagged for a closer look

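For 19 members the LPS change differed between genotype labels by the limma interaction test (adjusted p below 0.05 over all genes), given here as the log2 change in BHLHE40-Fl-labelled libraries minus that in Lyz2Cre. It was negative for Dnmt3a (-1.83), its antisense neighbour Dnmt3aos (-1.75), Kdm3a (-0.83), Hdac5 (-0.81), Kmt2a (-0.77), Hdac9 (-0.66), Kdm6a (-0.62), Kdm4a (-0.61), Kmt5b (-0.56), Kdm1a (-0.55), Kdm2a (-0.54), Kdm5d (-0.54), Kdm5b (-0.50) and Kat5 (-0.40). It was positive for Hdac4 (1.29), Kat2a (1.29), Kdm6b (0.78), Kdm1b (0.44) and Hdac2 (0.43). The negative value of Dnmt3a goes with a higher level in BHLHE40-Fl-labelled controls (1.61, against -0.22 with LPS). That of Dnmt3aos goes with differences of 0.74 in controls and -1.02 with LPS. The values of Hdac4, Kat2a and Kdm6b go with a difference between the LPS groups. Kat2a was also called higher in BHLHE40-Fl-labelled controls, a call that was lost when some single control libraries were left out. Summed marker lists of mesothelium, endothelium (mostly Vwf and Kdr) and other cells also differed between the labels, as the report gives, and their part in these differences was not tested.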

How the results depend on the processing

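Counts of called members, in each direction and at 2-fold, stayed within 1.5 times their value under all alternatives except the following. Under equal library totals 10 members rose and 39 fell with LPS in Lyz2Cre, 8 rose and 42 fell in BHLHE40-Fl-labelled libraries, 28 were higher and 14 lower between labels with LPS, and 27 members changed at least 2-fold with LPS in BHLHE40-Fl-labelled libraries. Under quantile normalization 3 members had a positive interaction. Of the called members 32 of 45, 32 of 42, 26 of 29, 30 of 41 and 18 of 19 remained called under equal totals (LPS in Lyz2Cre, LPS in BHLHE40-Fl-labelled libraries, label in controls, label with LPS, interaction). In edgeR 42 of 45, 41 of 42, 28 of 29, 38 of 41 and 19 of 19 remained called, and it called 4369 of all genes higher and 5430 lower for LPS in Lyz2Cre, 4714 and 5417 for LPS in BHLHE40-Fl-labelled libraries, 3016 and 3807 for label in controls, 3557 and 3442 for label with LPS, and 2291 and 1474 for the interaction.

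Among all called members, signs turned under equal totals for 9 with LPS in Lyz2Cre (6 called in the opposite direction: Kat8, Kdm2a, Kdm3a, Kmt5a, Kmt5b and Setd3), 8 with LPS in BHLHE40-Fl-labelled libraries (2: Kdm3b and Kmt2c) and 3 between labels with LPS (0), and under quantile normalization for 3 (2: Kdm2a and Setd3), 3 (1: Kmt2c) and 1 (0). Among the genes named by rule, signs turned as follows, with a call in both directions for Ep300 in Lyz2Cre and Crebbp; the cause was not tested. For LPS in Lyz2Cre these were Hdac3 (-0.63 with equal totals, -0.061 with quantile normalization, -0.015 in edgeR), Ezh2 (0.22 with quantile normalization), Ep300 (-0.37 with equal totals) and Crebbp (-0.33 and -0.018 with equal totals and quantile normalization). For LPS in BHLHE40-Fl-labelled libraries, with equal totals and quantile normalization, they were Hdac3 (-0.44 and -0.029), Ep300 (-0.48 and -0.31) and Crebbp (-0.28 and -0.19), and Ezh2 (-0.26 with equal totals). For label in controls they were Hdac3 (0.16 and 0.11) and Ezh2 (-0.024 in edgeR). For label with LPS they were Dnmt3a (0.066 and 0.055), Setdb2 (0.014 with equal totals) and Bhlhe40 (0.14 and 0.0035), and for the interaction Crebbp (0.047 with equal totals, 0.018 in edgeR). Leaving out 1 library gave -0.089 to 0.15 for Ezh2 with LPS in Lyz2Cre, -0.053 to 0.048 for Hdac3 and -0.081 to 0.17 for Ezh2 in controls, and -0.016 to 0.11 for Dnmt1 and -0.18 to 0.073 for Crebbp in the interaction.

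Replicate numbers did not pair the libraries: none of 18 same-number pairs had deviations correlated above 0.1 (range -0.07 to 0.03), and 10 of 36 comparisons were best with their own number. With the replicate block 22 members rose and 22 fell with LPS in Lyz2Cre. Low members such as Dnmt3c, Dnmt3l, Tet1 and Hdac11 rest on few reads.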
